A study of Mus musculus with 6 samples.

Results

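Car2, Trem2, Rcan2, Csf1 and Bglap are 5 of the 570 rows of the deposited expression table, chosen by name because they are linked to osteoclasts or to bone. The series covers 6 samples of osteoclasts grown from the cells of wildtype C57BL/6 mice with RANKL and M-CSF, the cytokine pair that drives the differentiation of this cell. All are labelled day 3, with 3 controls and 3 cultures that also received interferon-gamma. Columns CTRL1 to CTRL3 match the titles of the controls and are called control 1, control 2 and control 3 here. The match rests on these names alone, and the library names in the labels are BLANK1 to BLANK3. A further 3 value columns carry a name that matches no label and were not used, so 0 columns belong to the interferon-gamma samples. No comparison of treated with untreated cells was therefore made, and no test is given.

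Osteoclasts are multinucleated cells of the myeloid lineage that dissolve bone mineral with acid and digest its matrix with proteases. M-CSF keeps their precursors alive, RANKL switches on the calcineurin-dependent transcription factor NFATc1, and co-receptors with immunoreceptor tyrosine-based activation motifs (ITAMs) supply the calcium signal that this step needs. The 5 genes touch different points of that scheme. Csf1 encodes M-CSF itself, Trem2 a surface receptor that signals through the ITAM adaptor DAP12, Rcan2 a regulator that binds and inhibits calcineurin, and Car2 the cytosolic carbonic anhydrase that supplies protons for acid secretion. Bglap encodes osteocalcin, a vitamin K-dependent protein of the bone matrix that is known as a product of osteoblasts, the bone-forming cells.

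The table holds a selected set of rows, called differentially expressed genes in its name, and absence from it does not show that a gene was silent. Over the 570 rows the columns summed to between 13318 and 13620. Of 12 squamous epithelium markers 6 were in the table, with summed levels of 3228 to 3589 per column. Mt4 made up most of that sum, at 2321, 1960 and 1981 in controls 1, 2 and 3. The keratin genes on the list, Krt5, Krt14, Krt1 and Krt10, were not among the rows, nor were Lor and Ivl. Of 13 skeletal muscle markers 10 were in the table, with sums of 646 to 665 per column. The squamous epithelium list held 24.9% of the summed values and the skeletal muscle list 4.88%. None of the listed markers in the table stood at 0 in any column. The marker lists were chosen with earlier results of these data known, so counts of their genes in the table test nothing. Together the 5 genes held 0.384% of the summed means. None of 10 macrophage markers was among the rows, and of 20 resorption genes, which include Acp5 and Ctsk, Car2 alone was. The assignment of the values to osteoclasts rests only on the sample titles that the column names match. The 3 other value columns match no label, and whether the control columns come from these cultures was not tested. The part of other cell types in the values of the 5 genes was not tested. In bulk RNA, fewer cells of a type and less RNA per cell cannot be told apart.

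Bglap is the member whose reads are hardest to assign, because the mouse has near-identical osteocalcin genes beside it. In the GENCODE M21 annotation of build GRCm38, Bglap, Bglap2 and Bglap3 lie on the minus strand of chromosome 3, with 4801 bases between Bglap and Bglap2 and 4992 between Bglap2 and Bglap3. Each has 4 coding exons in the transcript compared, and the coding sequence including the stop codon is 288 bases long in all of them. Exon 1 separates Bglap from both neighbours, and its coding part is shown 5′ to 3′ with the positions that differ among the 3 genes in capitals.
Bglap exon 1, chr3:88384352-88384415: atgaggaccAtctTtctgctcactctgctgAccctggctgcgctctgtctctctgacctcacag
Bglap2 exon 1, chr3:88378587-88378650: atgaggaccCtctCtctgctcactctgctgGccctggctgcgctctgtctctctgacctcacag
Bglap3 exon 1, chr3:88369473-88369536: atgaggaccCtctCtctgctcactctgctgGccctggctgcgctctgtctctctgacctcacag

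Exon 4 carries most of the differences of Bglap3 and a single one between Bglap and Bglap2. Its coding part, stop codon included, is shown in the same way, with capitals at the 8 positions that differ among the genes.
Bglap exon 4, chr3:88383635-88383767: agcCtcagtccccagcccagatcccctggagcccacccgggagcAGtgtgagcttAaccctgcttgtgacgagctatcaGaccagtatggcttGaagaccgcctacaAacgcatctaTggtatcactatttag
Bglap2 exon 4, chr3:88377870-88378002: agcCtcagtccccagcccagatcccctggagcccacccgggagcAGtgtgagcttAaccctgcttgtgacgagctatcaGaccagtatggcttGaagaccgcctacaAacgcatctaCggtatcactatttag
Bglap3 exon 4, chr3:88368756-88368888: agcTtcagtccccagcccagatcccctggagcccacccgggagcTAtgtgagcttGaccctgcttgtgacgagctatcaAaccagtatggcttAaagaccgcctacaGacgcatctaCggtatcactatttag

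Over the whole coding sequence Bglap and Bglap2 differed at 4 positions, counted from 1 at the A of the start codon. These are A10C, T14C, A31G and T273C, with the base of Bglap first and that of Bglap2 second. Their identity was 98.6%, and the longest stretch without a difference ran for 241 bases. Bglap and Bglap3 differed at 13 positions (95.5% identity), with a longest identical stretch of 81 bases. Exon 3 had 0 differences among the 3 genes.

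The consequence for counting was measured on the spliced transcripts, by asking how many windows of a read's length occur in the transcript of another gene. The sources used here do not give the read length, so windows of 50, 100 and 150 bases were used. Of the 391 windows of 50 bases in the Bglap transcript, 292 (74.7%) also occurred in Bglap2, and 80 (20.5%) in Bglap3. At 100 bases 192 of 341 windows (56.3%) were shared with Bglap2, and at 150 bases 92 of 291 (31.6%). A single read from such a window fits both genes, and the sources used here do not say how the authors' counting split such reads. The values of Bglap are therefore uncertain as to which osteocalcin gene they stand for. Bglap2 and Bglap3 were not among the 570 rows.

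The other members share no such sequence. Car2 (transcript of 1788 bases, 7 exons, chromosome 3), Trem2 (1056 bases, 5 exons, chromosome 17) and Csf1 (4176 bases, 9 exons, chromosome 3) had 0 shared windows at all of these lengths. Rcan2 (3226 bases, 5 exons, chromosome 17) shared 12 of 3177 windows of 50 bases (0.378%) and 0 at 100 or 150 bases. No other annotated gene, on either strand, overlapped an exon of the transcripts compared for the 5 members.

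**Figure D1:**
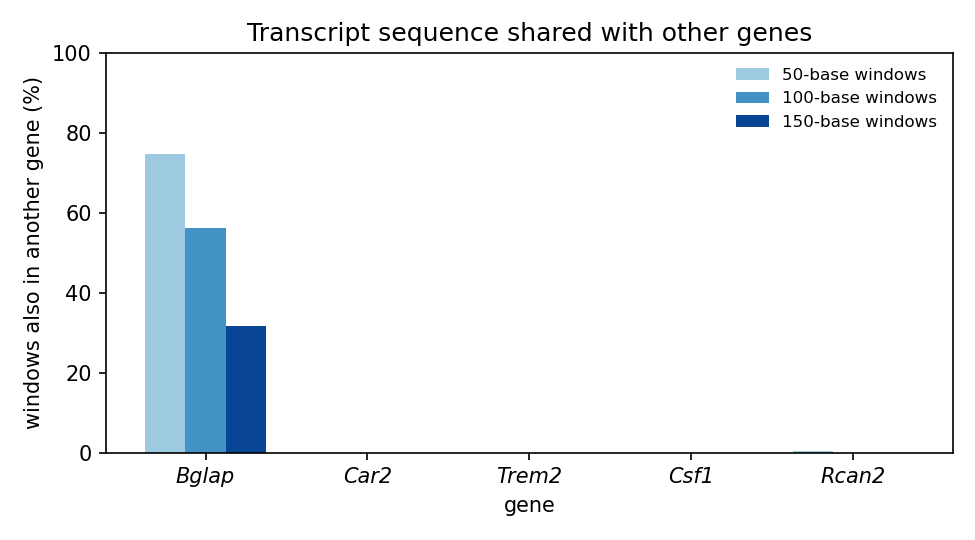
Percent of sequence windows of each gene's spliced transcript that also occur in a transcript of another gene (vertical axis), for windows of 50, 100 and 150 bases; bars are single values computed from GENCODE M21. Bglap stands at 74.7%, 56.3% and 31.6%, while Rcan2 reaches 0.378% at 50 bases and the rest are at 0.

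Csf1, the ligand of the pathway, had similar values in the 3 columns. The Csf1 row measures transcript, which is distinct from the M-CSF protein added to the cultures. Its deposited value was 1.43 in control 1, 1.37 in control 2 and 1.51 in control 3, a mean of 1.44 ± 0.0731 (SD, n = 3). The highest column lay 10.7% above the lowest. Of the 12 genes on the M-CSF axis list, Csf1 was the 1 in the table. The receptor gene Csf1r and Il34, the other ligand of that receptor, are on the list but were not among the rows.

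Trem2, the receptor, was the member whose columns disagreed most. Its value was 2.20 in control 1 and 2.29 in control 2 but 1.51 in control 3, with a mean of 2.00 ± 0.429 (SD, n = 3). Control 3 lay 24.7% below the mean, and the highest column stood 51.8% above the lowest. Without control 3 the mean was 2.24 and the coefficient of variation, the SD as a percent of the mean, was 2.55% in place of 21.4%, so the spread of Trem2 rests on that column. Of the 18 genes of the ITAM co-stimulation and fusion list, which include the DAP12 gene Tyrobp, Trem2 was the 1 in the table. It was likewise the 1 of 7 genes of the TREM family.

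Rcan2, the calcineurin regulator, had the lowest value of the members. Controls 1, 2 and 3 had values of 0.733, 0.790 and 0.818, with a mean of 0.781 ± 0.0435 (SD, n = 3). Its columns were close, with the highest 11.6% above the lowest. Of the 25 genes on the list of RANK and calcineurin signalling, which include the related Rcan1 and Rcan3 and the calcineurin subunit genes, Rcan2 was the 1 in the table.

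Car2, the cytosolic carbonic anhydrase gene, had values of 9.97, 11.2 and 11.6 in controls 1, 2 and 3, with a mean of 10.9 ± 0.829 (SD, n = 3). Control 1 was the low column, 8.56% below the mean, and control 3, the highest, lay 15.9% above control 1. Within its family of 16 carbonic anhydrase genes, Car1 and Car14 were also among the rows. Car1, a cytosolic enzyme known from red blood cells, was at 0.532, 0.156 and 0.660 in controls 1, 2 and 3, with a mean of 0.449 ± 0.262 (SD, n = 3). Car14, a membrane-bound form, was at 0.380, 0.295 and 0.339, with a mean of 0.338 ± 0.0422 (SD, n = 3). Every Car2 column thus held a larger deposited value than every column of Car1 and Car14. The control 1 column that was lowest for Car2 was not the lowest for Car1, which was lowest in control 2.

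Bglap, the bone matrix gene, had the highest value of the members. Controls 1, 2 and 3 stood at 39.0, 36.3 and 34.7, a mean of 36.7 ± 2.15 (SD, n = 3). Control 1 was the high column here, 6.26% above the mean, where for Car2 and Rcan2 it was the low one. Of 20 osteoblast and bone matrix genes on the list, among them Alpl, Sp7 and Col1a1, Bglap was the 1 in the table. Over the 5 osteoclast and bone lists together, 5 of 94 symbols were among the rows, and these are the 5 members, which the lists were written around.

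**Figure D2:**
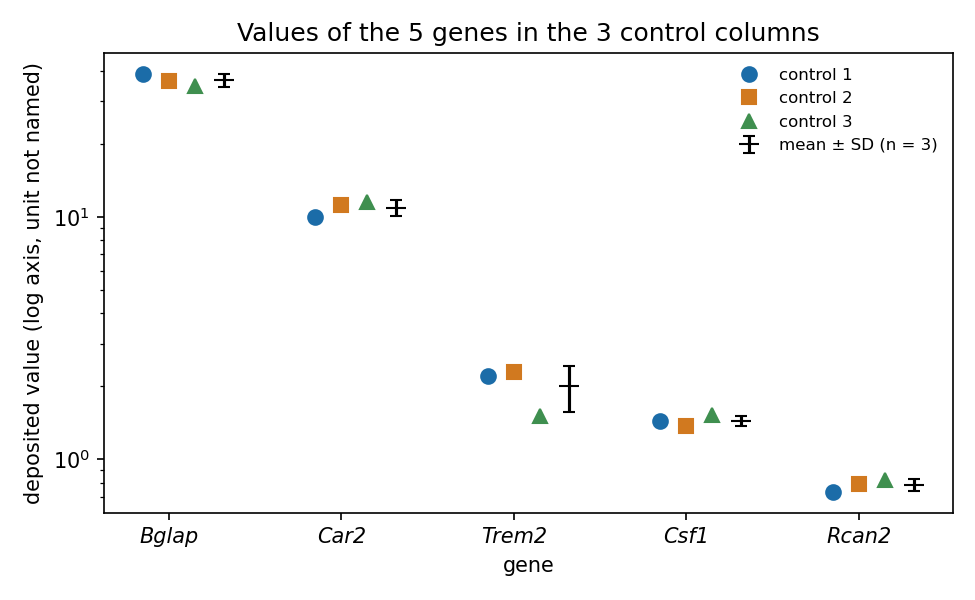
Deposited expression value (vertical log axis, unit not named) of each gene in control 1, control 2 and control 3 (points), with the mean and SD over the 3 columns beside them. The 5 genes span means from 0.781 for Rcan2 to 36.7 for Bglap, and the columns of Trem2 and Csf1 overlap.

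The members fell in the order Bglap, Car2, Trem2, Csf1 and Rcan2 by deposited value. Neither the table nor the labels say whether values are per transcript length, and these transcripts range from 440 to 4176 bases, so this is an order of deposited values and not of transcript numbers. The lowest Bglap column (34.7) was above the highest Car2 column (11.6), and the lowest Car2 column (9.97) above the highest Trem2 column (2.29). Trem2 and Csf1 were not separated, since the lowest Trem2 column, 1.506, was below the highest Csf1 column, 1.513. The lowest Csf1 column (1.37) was above the highest Rcan2 column (0.818).

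Set among the table's other rows, Bglap had a higher mean than 93.1% of them and Car2 than 86.3%. Trem2 stood above 62.0% and Csf1 above 54.3%, close to the median of the row means, which was 1.18. Rcan2 stood above 41.3% of the rows. Bglap was the row with rank 40 from the top, and the highest row of the table had a mean of 2087.

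The spread of low values is wider than that of high ones in this table, so each member was set beside the 50 rows nearest to it in mean. Csf1 had a coefficient of variation of 5.08%, and 5 of its 50 neighbours had a smaller one, with a median of 12.3% among them. For Rcan2 the value was 5.57%, with 6 of 50 neighbours lower and a median of 14.5%. Over all 3 columns both genes thus varied less than most rows of like level in this selected table, which does not stand for all expressed genes. Trem2, at 21.4%, had 37 of 50 neighbours below it (median 12.0%). Car2, at 7.61%, had 29 of 50 below it (median 6.94%), and Bglap, at 5.86%, had 27 of 50 below it (median 5.50%). Car2 and Bglap thus lay near the middle of their neighbours. Those neighbours were not all of like level, with means from 6.49 to 18.2 for Car2 and from 11.2 to 116 for Bglap. With 3 columns a coefficient of variation is itself imprecise, and the order of the members by it changed when a column was left out. Without control 1 it was 2.32% for Car2, 2.46% for Rcan2 and 3.24% for Bglap, all lower than over 3 columns, but 7.16% for Csf1 and 29.1% for Trem2, both higher.

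**Figure D3:**
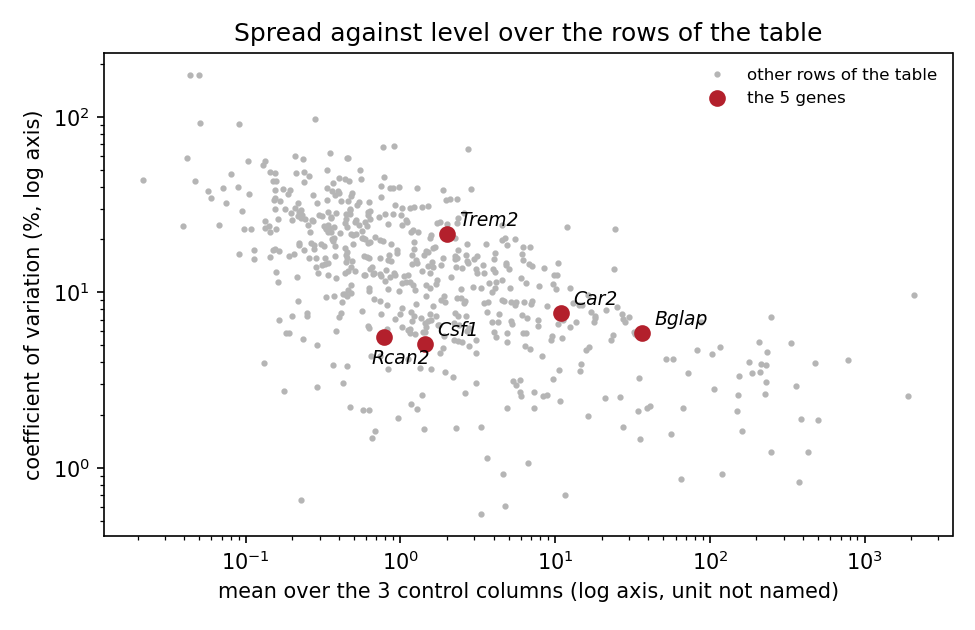
Coefficient of variation over the 3 control columns (vertical log axis, percent) against the mean of the deposited values (horizontal log axis, unit not named); each grey point is a row of the table and the 5 genes are in red. Csf1 at 5.08% and Rcan2 at 5.57% lie low among rows of like mean, and Trem2 at 21.4% lies in their upper part.

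The members did not share one pattern over the columns. Control 3 was the highest column for 3 of the 5 genes (Car2, Rcan2 and Csf1) and the lowest for the other two, Trem2 and Bglap. Control 1 was the lowest column for Car2 and Rcan2 and the highest for Bglap. Control 2 was the highest for Trem2 and the lowest for Csf1. Apart from control 3 of Trem2, deviations from a member's mean stayed within 14.4%, the value of Trem2 in control 2.

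**Figure D4:**
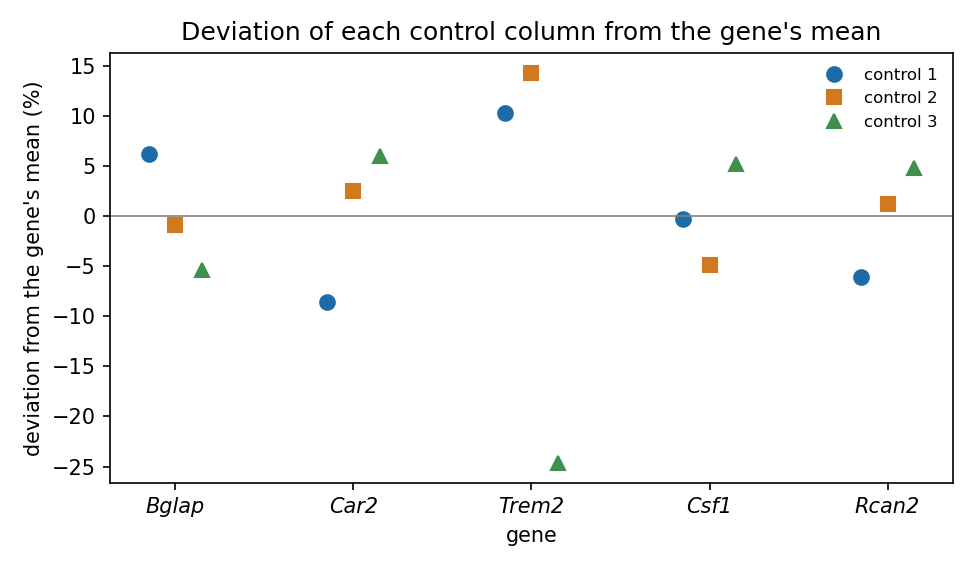
Deviation of control 1, control 2 and control 3 (points) from each gene's mean over the 3 columns, in percent. Trem2 in control 3 lies 24.7% below its mean, and Car2 in control 1, 8.56% below its own, is the next lowest point.

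Other rows with values most like those of each member over the 3 columns were found by the Euclidean distance of log2(value + 1), a likeness of level that says nothing more. Ppp1r1a, which encodes a protein phosphatase inhibitor, was nearest to Csf1, with a mean of 1.40 ± 0.0828 and a distance of 0.046, followed by Abca8a at 1.46 ± 0.0935. Npas2, a circadian transcription factor gene, was nearest to Rcan2 at 0.791 ± 0.0921 and a distance of 0.060, followed by Fndc1 at 0.738 ± 0.0941. Kif20a, a mitotic kinesin gene, was nearest to Trem2 at 1.80 ± 0.454 and a distance of 0.19. Tmem182 followed at 1.83 ± 0.261. For Car2 the nearest rows were 2310034C09Rik at 10.5 ± 0.381 (distance 0.13) and the muscle LIM protein gene Csrp3 at 10.8 ± 0.259. For Bglap they were Ifit1bl1 at 35.6 ± 0.521 (distance 0.16) and AU021092 at 34.6 ± 0.724. All SDs in this paragraph are over the 3 control columns.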

How the data were processed

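The authors' deposited table gives 1 normalised expression signal per row and column, never negative, in a unit that neither its header nor the labels name. Of the 570 rows, 525 have a gene symbol and 45 an identifier that starts with MSTRG. Per the submitters' processing notes, the tools include Bowtie2 2.4.4 and the genome builds listed are GRCh37 and GRCm39, with no role given to either. No source used here names the quantification. Columns were matched to samples by name, and 3 value columns that match no label were not used. Sequencing depth is unknown, so no counting error can be given. Nothing in the labels says whether controls came from separate animals or cultures, so an SD may be technical. At most 1 of 570 rows had an identical value in any pair of columns.

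Means, SDs and coefficients of variation were computed over the 3 control columns with Python 3.11.15, pandas 2.3.3 and numpy 2.4.6, after a test on simulated data. No test between groups could be run. Named genes were the 5 members and those members of 10 gene lists that are in the table. The 2 rows with a gene symbol nearest to each member were also named. The epithelium and muscle markers are given as sums, with separate values for Mt4 alone. Some list genes that are not among the rows are named without values, to say what a list holds or to compare the osteocalcin genes. Members and lists were chosen with earlier results of these data known. Alternatives were a median, columns scaled to the same sum, log scales with pseudocounts of 0.1 and 1, other background rows and leaving out each column. Sequences came from GENCODE M21 (GRCm38), another build than the notes name for mouse. Each member's transcript was the protein-coding one with the longest coding sequence, for Bglap3 among those with 4 exons.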

Additional observations from a re-analysis of the deposited data

How the results depend on the processing

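No paired analysis was possible because the interferon-gamma samples had no matching column, and the alternatives planned for that comparison were not run for the same reason. Levels moved by less than 1 SD under a median and under scaling to the same column sum (10 of 10 values). For a median of 3 values this holds by construction. The column sums were close, at 13318 to 13620, so scaling could change the means little. The 10 values are therefore a weak check on the levels. With 1 column left out, means ranged from 10.6 to 11.4 for Car2, 1.86 to 2.24 for Trem2, 0.762 to 0.804 for Rcan2, 1.40 to 1.47 for Csf1 and 35.5 to 37.7 for Bglap. The coefficients of variation then ranged from 2.32% to 10.4% for Car2, 2.55% to 29.1% for Trem2, 2.46% to 7.77% for Rcan2, 3.34% to 7.16% for Csf1 and 3.24% to 8.17% for Bglap. The percentiles of level ranged from 85.4 to 86.6, 60.5 to 64.0, 40.9 to 42.0, 54.3 to 55.7 and 93.0 to 93.1 in the same order. Among rows with a mean of at least 1, which removes low rows by construction, the percentiles were 74.4 for Car2, 29.2 for Trem2, 14.8 for Csf1 and 87.2 for Bglap; Rcan2 is below that mean and has none. Among rows with a gene symbol they were 85.3 for Car2, 61.8 for Trem2, 42.9 for Rcan2, 54.8 for Csf1 and 92.7 for Bglap. On the log scale with a pseudocount of 1, which shrinks the spread of low values, the spread was 2.45% for Rcan2 and 2.99% for Csf1.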
